A study of Drosophila melanogaster with 11 samples.

Results

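Among the muscle precursors of the third instar wing disc, a group of cells carried transcripts of Sp1, Connectin (Con), sidestep (side) and kekkon 2 (kek2), and the data on these cells are described here. The cells were chosen by their unique molecular identifiers (UMIs, each of which stands for a captured transcript). A myoblast was a barcode with 200 to 2500 detected genes, at least 2 UMIs of the myoblast genes Him, zfh1, twi and CG9650, and more than 2 times as many of these as of the epithelial genes Fas3, grh, ImpE1 and ImpE2. A myoblast with at least 2 UMIs of Sp1, Con, side and kek2 together was a member. The 8 wild-type libraries held 610 members among 5135 myoblasts, out of 22041 barcodes with 200 to 2500 genes (26085 over all 11 libraries). They were compared, library by library, with the 3539 myoblasts in which none of the 4 genes was detected, and the 986 myoblasts with 1 UMI were in neither class.

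Wing discs were taken from larvae at the wandering stage of the third instar, reared at 25 °C, and the notum and hinge were dissociated for Drop-seq after the pouch was cut off. Of the wild-type libraries, 4 (replicates 1 to 4) came from larvae with the driver P{1151-GAL4} alone, here 1151-GAL4, and 4 (replicates 5 to 8) from larvae in which this driver expressed the control hairpin P{VALIUM20-mCherry}attP2, here 1151>mCherry-RNAi. In 3 further libraries, labelled 1151>Ama-RNAi (replicates 1, 4 and 5), the driver expressed a hairpin against Amalgam, P{TRiP.Ama_HMS00297}attP2. The driver is active in the myoblasts and not in the epithelium. All larvae therefore carried the driver, and the libraries differ in the hairpin. The labels do not say how many discs were pooled, so that libraries are the replicates, and their spread may be in part technical. The p-values of single genes rest on a spread estimated in part over all tested genes, and not on the gene's own spread between libraries alone. A small p can therefore stand beside a direction that differed between libraries.

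The adult muscle precursors lie between the notum epithelium and the basal lamina and divide during larval life. They receive Notch signals, which keep them undifferentiated, and Wingless from the epithelium. Those with high Vestigial form the fibrillar indirect flight muscles, and those with high Cut form the tubular direct flight muscles. Of the 4 marker genes, Sp1 encodes a zinc finger transcription factor of the Sp/KLF family, known for its role in leg growth. Con encodes a leucine-rich repeat protein that mediates homophilic cell adhesion and marks a subset of embryonic muscles and the neurons that reach them. side encodes an immunoglobulin superfamily protein of the muscle surface that attracts motor axons, and kek2 a transmembrane protein with leucine-rich repeats and an immunoglobulin domain. In the Ensembl annotation of BDGP6, Sp1 lies at X:9729648-9756369 (plus strand), Con at 3L:4936758-5079033 (minus strand), side at 3R:27375088-27437482 (minus strand) and kek2 at 2L:11581937-11626883 (plus strand). None of the genes called below overlaps one of them.

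The depth of the wild-type libraries ran from 1335977 to 10548893 UMIs, and 1151-GAL4 replicates 3 and 4 were the deepest and held 432 of the 610 members (70.8%). No myoblast barcode was shared between libraries. The members were deeper than the compared cells in every library, at medians of 757.5 to 1327 UMIs against 488 to 848 per cell, so that each comparison was repeated against compared cells of matched depth. Position in the disc was not measured, and that these cells lie near the epithelium cannot be told from these files.

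Con and side were the marker genes detected in most members. Con was detected in 396 of the 610 members (64.9%), side in 372 (61.0%), Sp1 in 135 (22.1%) and kek2 in 45 (7.38%). UMIs of a single marker gene alone placed 315 cells (51.6%) in the group, 150 of them by side and 136 by Con, whereas 255 cells carried 2 of the genes, 37 carried 3 and 3 carried all 4. Con and side were found together in 192 members, Sp1 and Con in 86, Sp1 and side in 53, and kek2 with Con in 24. Most members stood at the threshold, as 385 held exactly 2 marker UMIs, 225 held 3 or more, and 62 held 5 or more. Membership thus came from Con and side more often than from Sp1, and kek2 added few cells.

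The values that chose the members are given as a description only. Just inside the threshold, in cells with 2 marker UMIs, Con averaged 781 CPM (UMIs of a gene for every 1000000 UMIs of the class), side 894, Sp1 173 and kek2 90.5 over the 8 libraries. Just outside, in cells with 1 marker UMI, the averages were 371 CPM for Con, 599 for side, 65.3 for Sp1 and 46.4 for kek2. In the myoblasts as a whole, side was detected in 15.2% to 22.2% of cells, Con in 8.11% to 18.3%, Sp1 in 1.5% to 7.64% and kek2 in 0.817% to 2.78%. In epithelial cells of the same libraries, chosen by the reverse gate, side was detected in 0.548% to 1.95%, Con in 0.753% to 2.44%, Sp1 in 0.610% to 2.70% and kek2 in 0% to 0.865%. The median depth of the epithelial cells was 555 to 1292.5 UMIs and that of the myoblasts 516 to 937. All 4 genes were detected in a larger share of myoblasts than of epithelial cells within every library, but for Sp1 and kek2 the ranges over libraries overlapped.

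The share of myoblasts that were members ranged from 5.41% to 15.3% in wild type, with a median of 11.8%. In 1151-GAL4 replicates 1 to 4 the share was 7.08%, 5.41%, 12.05% and 13.6%. In 1151>mCherry-RNAi replicates 5 to 8 it was 15.3%, 10.5%, 14.2% and 11.5%. The exact (Clopper-Pearson) 95% intervals, which cover counting error only, ran from 3.23% to 8.41% for the lowest library and from 9.83% to 22.2% for the highest. The shares of 1151-GAL4 replicates 1 and 2 were the lowest, but the interval of replicate 1 (4.68% to 10.2%) overlapped those of all 1151>mCherry-RNAi libraries. Among epithelial cells, 0.198% to 1.56% met the same threshold of 2 marker UMIs. The mean shares were 9.54% ± 3.91 (SD, n = 4) in 1151-GAL4 and 12.9% ± 2.23 (SD, n = 4) in 1151>mCherry-RNAi, and the groups overlapped. The difference of 3.35 percentage points did not pass a two-sided exact permutation test over libraries (p = 0.20, where the smallest possible p is 0.0286).

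The 1151>mCherry-RNAi libraries were shallower per cell, with medians of 516 to 729 UMIs in myoblasts against 748 to 937 in 1151-GAL4. The shares were therefore compared again with the count of marker UMIs brought to equal depth. With every myoblast thinned to 400 UMIs, the expected share was 1.86%, 1.87%, 2.91% and 3.75% in 1151-GAL4 and 6.94%, 3.92%, 6.75% and 5.37% in 1151>mCherry-RNAi. The libraries of the 2 lines no longer overlapped, and the exact permutation test gave its smallest possible p (p = 0.0286, two-sided, 4 against 4 libraries). This used 3698 of 4034 myoblasts in 1151-GAL4 and 908 of 1101 in 1151>mCherry-RNAi. The summed level of the 4 genes in myoblasts was 370 to 560 CPM in 1151-GAL4 and 556 to 844 CPM in 1151>mCherry-RNAi. In epithelial cells thinned in the same way, the expected share was 0.00113% to 0.247% in 1151-GAL4 and 0.0330% to 0.732% in 1151>mCherry-RNAi, and higher on average in the latter as well (0.371% against 0.114%), with overlap. The myoblast gate itself was still applied at full depth, so that it was not equal between the lines, and its part in this difference was not tested. Library preparation and line cannot be told apart.

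The libraries labelled 1151>Ama-RNAi held few myoblasts, 53 in all, and a single member. Ama itself was counted at 160, 381 and 217 CPM in their myoblasts, on 1, 8 and 7 UMIs, and at 36.3 to 225 CPM in wild-type myoblasts. These UMIs are too few to tell whether Ama was lower, and the libraries are named by their label. The study reported a loss of Ama expression in the Ama-depleted myoblasts, which it chose by clustering and not by the gate used here. Members numbered 0 of 6, 0 of 14 and 1 of 33 myoblasts. The exact 95% intervals of the 3 shares reached 45.9%, 23.2% and 15.8%. By the limit of 3 counts, a count of 0 allows a share of up to 50.0% of 6 cells and 21.4% of 14 cells. The mean share was 1.01% against 11.2% in wild type, a difference of -10.2 percentage points (two-sided exact permutation test, 3 against 8 libraries, p = 0.00606, the smallest the test can give). All 3 shares lay below the lowest wild-type share, while each library's own interval overlaps the wild-type shares. The difference thus rests on the 3 libraries together and not on any one of them. The permutation test weighs all libraries alike and takes no account of the 6, 14 and 33 cells behind these shares. Its p therefore does not cover their counting error and can overstate the evidence. The exact intervals are drawn in the plot of shares by library.

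**Figure D1:**
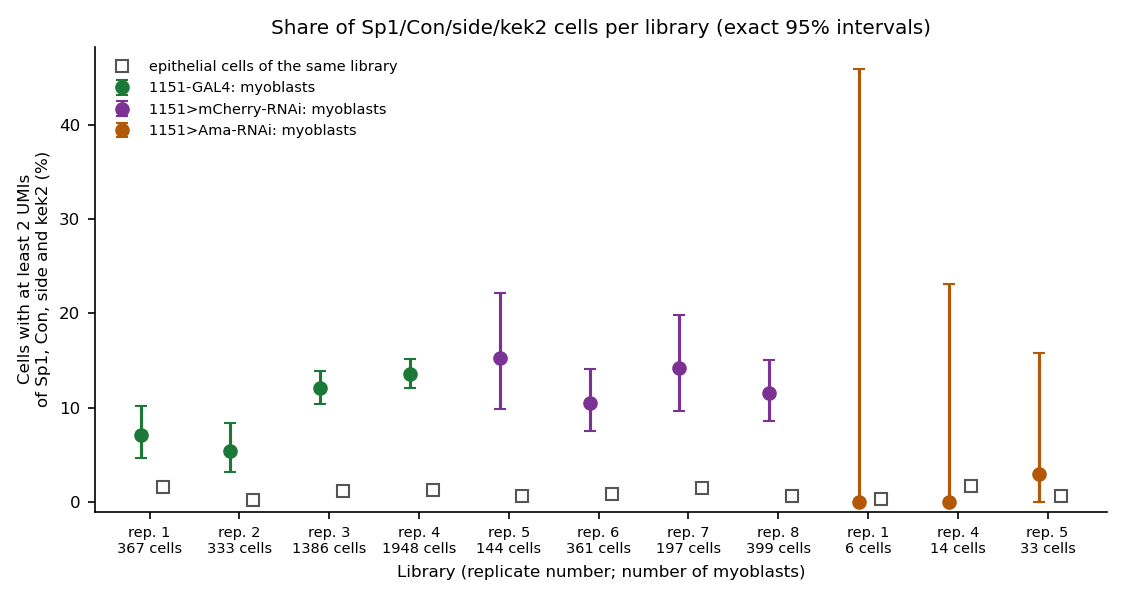
Share of myoblasts with at least 2 UMIs of Sp1, Con, side and kek2 in each library (circles, with exact 95% intervals) and of epithelial cells meeting the same threshold (open squares). The 8 wild-type libraries lie between 5.41% and 15.3%, above 0.198% to 1.56% in their epithelial cells, and the intervals of the 3 libraries labelled 1151>Ama-RNAi reach up to 15.8% or higher.

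To ask whether the 4 genes mark the same cells, each was left out of the choice and measured in myoblasts chosen on the other 3. The 4 genes had been grouped with earlier results of these data known, so that these tests are not independent support for the group. Sp1 and Con were higher in the cells chosen without them, and for side and kek2 the difference did not pass the test. Sp1 was at 0 to 389.5 CPM (median 195) in cells chosen on Con, side and kek2, and at 9.40 to 151 CPM (median 23.3) in cells with none of the 3. It was higher in 7 of 8 libraries and lower in 1151-GAL4 replicate 2, where it was at 0, and the classes overlapped across libraries. The fold was 4.05 (log2 fold change 2.02, SE 0.25, adjusted p = 6.74e-10, edgeR quasi-likelihood test, adjusted after Benjamini and Hochberg), and 1.45% of the 1244 genes in this fit were called. It rested on 101 UMIs of Sp1 in the chosen cells and 106 in the others.

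Con was at 93.7 to 1049 CPM (median 472) in cells chosen on Sp1, side and kek2, and at 97.9 to 313 CPM (median 193) in the others. It was higher in 7 of 8 libraries, all but 1151>mCherry-RNAi replicate 5, in which only 1 UMI was counted in the chosen cells. The fold was 2.37 (log2 fold change 1.24, SE 0.17, adjusted p = 1.42e-06, edgeR), and 0.85% of the 1294 genes in this fit were called. Against cells of matched depth the log2 fold changes were 1.88 (SE 0.35) for Sp1 and 1.55 (SE 0.25) for Con, and both remained called.

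The gene side was at 168 to 591 CPM (median 314) in cells chosen on Sp1, Con and kek2, and at 169 to 393 CPM (median 222) in the others. It was higher in 4 of the 7 libraries with enough cells, and the log2 fold change was 0.50 (SE 0.18, adjusted p = 0.163, edgeR), while 2.37% of the genes in this fit were called. kek2 was at 0 to 118 CPM (median 52.8) against 10.9 to 31.1 CPM (median 26.2), and higher in 7 of 8 libraries. Its log2 fold change was 0.84 (SE 0.34, adjusted p = 0.335, edgeR) on 27 and 65 UMIs, with 1.7% of the genes called. These 4 fits share most of their cells and are not independent of each other.

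**Figure D2:**
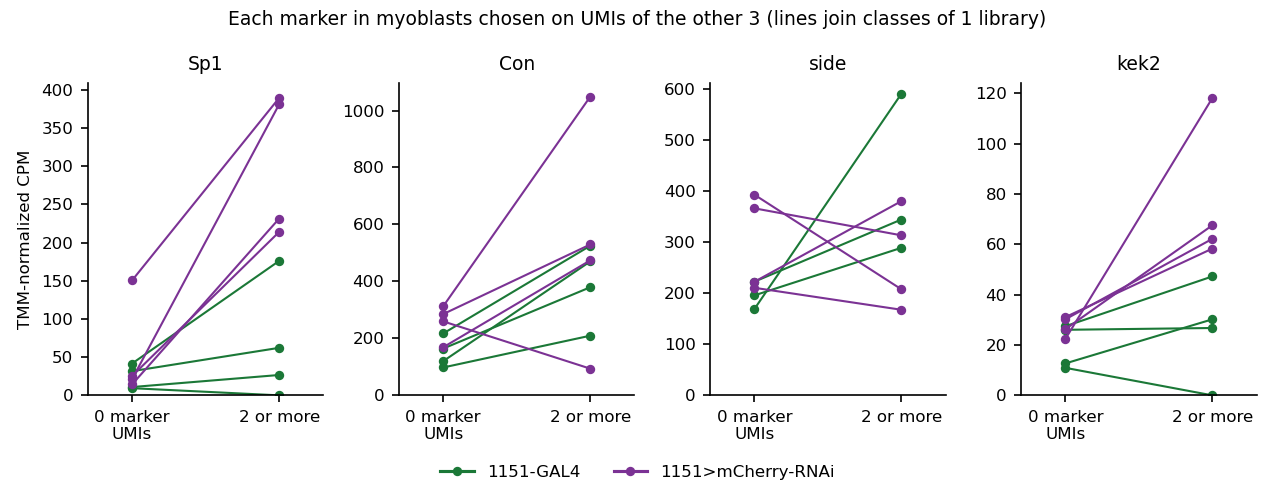
Level of each marker gene, in TMM-normalized CPM, in myoblasts with 0 or with at least 2 UMIs of the other 3 marker genes, a line for each wild-type library. Sp1 and Con were higher in 7 of 8 libraries, side in 4 of 7, and kek2 in 7 of 8 at a low level.

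In the comparison of members with marker-negative myoblasts, 1228 genes outside the rule were tested and 22 (1.79%) were called at an adjusted p below 0.05. Of these, 12 (0.977%) were higher and 10 (0.814%) lower in members. The counts of called genes by list given below are to be set against these shares. The median log2 fold change of all tested genes was -0.01. Among the genes higher in members were beat-IIIc, CG34380, Ama, the Wingless receptor gene fz2 and the Notch target E(spl)m6-BFM, of which CG34380 and Ama were not called against cells of matched depth. Among those lower were the Wingless antagonist gene nkd, the cell cycle phosphatase gene stg and the regulators edl, fru and chinmo, of which fru and chinmo were not called against those cells. Without 1151-GAL4 replicate 4, 14 genes were called, and without 1151-GAL4 replicates 3 and 4 together 3. For none of the 22 genes were the classes separate over all libraries, and 7 genes changed in the same direction in all 8 libraries (beat-IIIc, Ef1alpha100E and Ama higher, nkd, edl, stg and fru lower). For Ama this rests on 4 UMIs in all myoblasts of 1151>mCherry-RNAi replicate 5. Such agreement was not limited to called genes, as BM-40-SPARC was lower in all 8 libraries and not called.

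The Beat proteins are immunoglobulin superfamily proteins, of which several bind Side or its relatives, and beat-IIIc showed the smallest p of all genes. It was at 380 to 1297 CPM (median 977) in members and at 371 to 722 CPM (median 588) in marker-negative myoblasts. Members were higher within each of the 8 libraries, but by little in 1151-GAL4 replicate 1, and the ranges overlapped. The fold was 1.67 (log2 fold change 0.74, SE 0.09, adjusted p = 1.69e-11, edgeR). Of the 21 genes on the list of Beat and Side families, 2 were tested, and beat-IIb was the other, with a log2 fold change of -0.33 that was not called and with members higher in 4 of 8 libraries.

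Of the Wingless pathway, 2 genes were called in opposite directions. fz2, a receptor of Wingless, was at 272 to 663 CPM (median 430) in members and at 163 to 422 CPM (median 328) in the compared cells. It was higher in 7 of 8 libraries, all but 1151>mCherry-RNAi replicate 5 (log2 fold change 0.62, SE 0.11, adjusted p = 1.71e-05, edgeR). naked cuticle (nkd), an antagonist of Wingless signalling that is itself induced by it, was at 306 to 445 CPM (median 355) in members and at 405 to 974 CPM (median 522) in the compared cells. It was lower in all 8 libraries, with a small overlap of the ranges (log2 fold change -0.70, SE 0.11, adjusted p = 1.17e-06, edgeR). Of the 18 genes on the Wingless list 7 were tested, and the other 5 were not called.

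string (stg), the Cdc25 phosphatase that drives entry into mitosis, was at 90.6 to 389 CPM (median 281) in members and at 339 to 704 CPM (median 483) in the compared cells. It was lower in all 8 libraries (log2 fold change -0.76, SE 0.13, adjusted p = 2.96e-06, edgeR). PCNA, the sliding clamp of DNA replication, was the only other gene of the cell cycle list that passed the filter on low counts, of 22 on the list, and it was not called (log2 fold change -0.36, and 0.06 against cells of matched depth). Division itself was not measured, and whether members divide less often cannot be told from stg alone.

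edl, which encodes a small SAM domain protein that regulates the ETS factors of receptor tyrosine kinase signalling, was at 0 to 330 CPM (median 210) in members and at 76.6 to 564 CPM (median 345) in the compared cells. It was lower in all 8 libraries and at 0 in members of 1151>mCherry-RNAi replicate 7 (log2 fold change -0.85, SE 0.14, adjusted p = 2.96e-06, edgeR). On the list of FGF and EGF signals, edl was the only gene called of 6 tested. sprouty (sty), a feedback inhibitor of these signals, had a log2 fold change of -0.40 and was not called (adjusted p = 0.0763, edgeR).

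The study's markers of a class of indirect flight muscle precursors that it called IFM_3 include edl and stg. Of the 8 tested markers of this list 5 were called lower in members and none higher, while 0.814% of all 1228 tested genes were called lower. Against compared cells of matched depth 2 of the 8, edl and stg, were called, both lower, and 1.47% of all tested genes were called in either direction. fruitless (fru), a BTB zinc finger factor, was at 45.3 to 346 CPM (median 165) in members and at 154 to 609 CPM (median 241) in the compared cells, and lower in all 8 libraries (log2 fold change -0.69, SE 0.16, adjusted p = 0.00253, edgeR). Without 1151-GAL4 replicate 3 its adjusted p was 0.0805. rgn and chinmo, the latter a BTB zinc finger factor of temporal identity, had log2 fold changes of -0.55 and -0.53, and were lower in 7 and 6 of 8 libraries. The median of the list was -0.54, against -0.01 for all tested genes. The study chose this list on the same samples, so that it is not independent evidence of a direction.

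The calls of rgn and chinmo were weak. chinmo was no longer called against compared cells of matched depth (log2 fold change -0.14, adjusted p = 0.898, edgeR), or with any one of 6 libraries left out, where its log2 fold change lay between -0.59 and -0.41. rgn was not called against cells of matched depth (-0.49, adjusted p = 0.249, edgeR), nor with any one of 5 libraries left out, where its log2 fold change lay between -0.56 and -0.51.

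**Figure D3:**
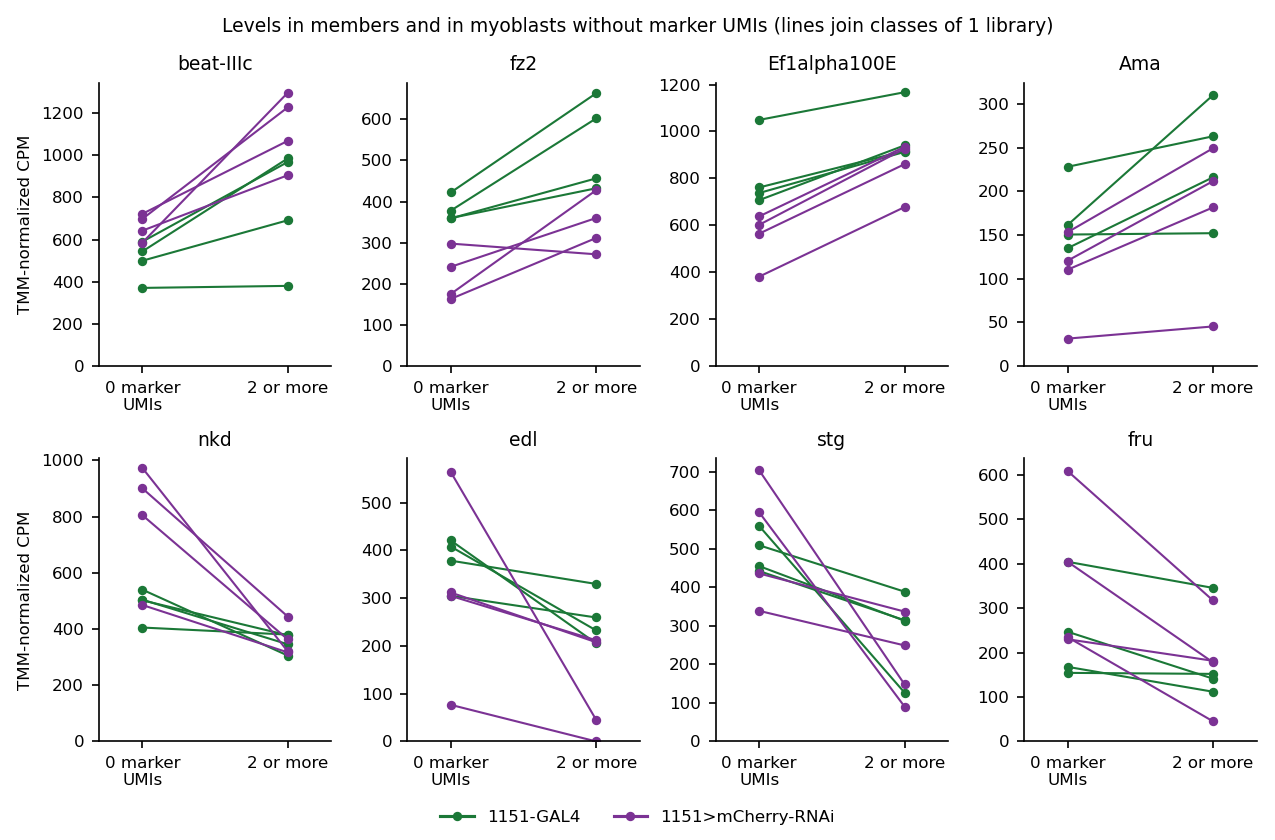
Levels of 4 genes that were higher and 4 that were lower in members, in TMM-normalized CPM, with a line for each wild-type library joining marker-negative myoblasts and members. beat-IIIc, Ef1alpha100E and Ama were higher and nkd, edl, stg and fru lower in all 8 libraries, and fz2 was higher in 7. For Ama, 1151>mCherry-RNAi replicate 5 held only 4 UMIs in all its myoblasts.

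The Notch targets of the E(spl) complex are active in undifferentiated myoblasts, and E(spl)m6-BFM was the only one of 8 tested that was called. It was at 178 to 3927 CPM (median 1408) in members and at 284 to 3142 CPM (median 1235) in the compared cells, and differed more between libraries than between classes. Within libraries it was higher in members in 6 of 8 (log2 fold change 0.26, SE 0.05, adjusted p = 1.71e-04, edgeR), and without 1151-GAL4 replicate 4 it was not called (0.22, adjusted p = 0.282). E(spl)m8-HLH, with a log2 fold change of 0.61, and E(spl)mgamma-HLH, with -0.61, did not pass the test (adjusted p = 0.0763 and 0.228, edgeR). The median of the 8 genes was 0.06. Of the Notch pathway itself 7 of 13 genes were tested and none was called, with Notch (N) at a log2 fold change of -0.02.

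Among the genes of adhesion, Ama, the secreted ligand of Neurotactin, was at 45.3 to 310 CPM (median 214) in members and at 31.3 to 228 CPM (median 143) in the compared cells. It was higher in all 8 libraries, by little in 1151-GAL4 replicate 1. In 1151>mCherry-RNAi replicate 5 all myoblasts together held 4 Ama UMIs, too few to give a direction. The log2 fold change was 0.53 (SE 0.16, adjusted p = 0.0421, edgeR). This call was lost against cells of matched depth (0.65, adjusted p = 0.0559), and without 1151-GAL4 replicate 3 (0.38, adjusted p = 0.698), 1151>mCherry-RNAi replicate 7 (0.52, adjusted p = 0.0706) or replicate 8 (0.52, adjusted p = 0.0978). Of 18 genes on the list 11 were tested, and Ama was the only one called, while the laminin gene wb had a log2 fold change of 0.43 (adjusted p = 0.215, edgeR). Of the leucine-rich repeat surface proteins 4 were tested, of the guidance genes 6 and of the genes of myoblast fusion and muscle attachment 5, and none was called.

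Ama is also among the study's markers of direct flight muscle precursors, of which 10 were tested, 1 was higher, none lower, and the median log2 fold change was 0.21. In the study, Sp1, Con and side also mark a class of indirect flight muscle precursors, IFM_1, and Ama, Argk and wb do so more weakly. By hybridization in the disc, a reporter and lineage tracing it found Ama in a small subset of indirect flight muscle precursors. That class was chosen on the same samples, and whether the members belong to it was not tested. Argk, which encodes arginine kinase, had a log2 fold change of 0.31, and sty one of -0.40, and neither was called. For cut and vestigial, by which the study told the 2 fates apart, no difference passed the test. Cut (ct) had a log2 fold change of 0.10 (SE 0.11, adjusted p = 0.869, edgeR), and vestigial (vg) one of -0.09 (SE 0.09, adjusted p = 0.857, edgeR). ct was at 346 to 724 CPM (median 542) in members and at 345 to 561 CPM (median 457) in the compared cells, and vg at 431 to 1313 CPM (median 701) and 525 to 1128 CPM (median 891). The classes overlapped for both genes. The study also names nkd and nop5 as markers of indirect flight muscle precursors. Of these, nkd was lower in members, as given above, also against cells of matched depth, and nop5 was not called. The study chose its markers of direct flight muscle precursors, and nkd, on the same samples.

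Of 6 tested genes on the list of myoblast markers, Ef1alpha100E and E(spl)m6-BFM were higher in members and none lower. E(spl)m6-BFM is the Notch target given above, and in the study it marks only some classes of myoblasts. Ef1alpha100E, a translation elongation factor of muscle and neurons, was at 677 to 1167 CPM (median 922) in members and at 381 to 1049 CPM (median 672) in the compared cells, and higher in all 8 libraries (log2 fold change 0.40, SE 0.09, adjusted p = 8.00e-04, edgeR). homothorax (hth), a homeodomain cofactor of proximal identity, was at 2434 to 6669 CPM (median 4323) against 2031 to 6157 CPM (median 3721). It was higher in 7 of 8 libraries by a small amount (log2 fold change 0.15, SE 0.04, adjusted p = 0.0117, edgeR), and not called without 1151-GAL4 replicate 3 (0.14, adjusted p = 0.310). Mef2, the muscle differentiation factor, had a log2 fold change of -0.09 and was not called.

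Of 7 tested genes of the basement membrane 1 was lower and none higher. Cg25C, a type IV collagen chain, was at 42.0 to 130 CPM (median 78.0) in members and at 15.7 to 410 CPM (median 127) in the compared cells. It was lower in 5 and higher in 3 of the 8 libraries (log2 fold change -0.93, SE 0.23, adjusted p = 0.00630, edgeR). The call was lost without 1151-GAL4 replicate 3 (-0.81, adjusted p = 0.198) and against cells of matched depth (-0.97, adjusted p = 0.0728). BM-40-SPARC, a collagen-binding protein, was at lower values in all 8 libraries, with a log2 fold change of -0.34 (adjusted p = 0.120, edgeR), and the laminin gene LanA had one of -0.60 (adjusted p = 0.186, edgeR). The median of the list was -0.34, against -0.01 for all tested genes. The list of growth genes, which holds markers of the study's class IFM_4, chosen on the same samples, and nucleolar genes, had no call among 10 tested and a median of -0.14.

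The other 9 called genes were on no list, and are named after their values were seen. Of these, CG34380, named smal in the reference annotation and encoding a discoidin domain receptor, had a log2 fold change of 0.57 (SE 0.12) and was higher in 7 of 8 libraries. CG15628 had one of 0.99 (SE 0.19), and bun, a TSC22-type regulator, one of -0.26 (SE 0.06). The calls of these 3 held with each library left out. Against cells of matched depth CG15628 remained called, and CG34380 (0.49, adjusted p = 0.0749) and bun (-0.20, adjusted p = 0.210) did not.

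The calls of 5 more were lost when single libraries were left out. pigs, a Gas2-like cytoskeletal protein, had a log2 fold change of 0.75 (SE 0.18), and of 0.38 (adjusted p = 0.771) without 1151-GAL4 replicate 4. SKIP had one of 0.59, and of 0.52 without 1151-GAL4 replicate 4 (adjusted p = 0.282) or 1151>mCherry-RNAi replicate 8 (adjusted p = 0.0522). sls, which encodes a titin-like protein, had one of 0.61, and of 0.50 without 1151-GAL4 replicate 3 (adjusted p = 0.212) and 0.55 without 1151>mCherry-RNAi replicate 8 (adjusted p = 0.0745). Bacc (-0.17) lost its call without any one of the 4 1151-GAL4 libraries (-0.19 to -0.14), and heph (-0.43), an RNA-binding splicing regulator, with any one of 5 libraries left out (-0.41 to -0.34).

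CG1890 had the largest fold of all called genes, 2.39 (log2 fold change 1.26, adjusted p = 1.25e-07, edgeR), and the call rested on very few cells. A single member of 1151-GAL4 replicate 4 held 160 of the 257 CG1890 UMIs in members (62.3%). With the 2 members of this library that held 20 or more CG1890 UMIs left out, the log2 fold change was -0.16 (adjusted p = 0.900), and without the library 0.11 (adjusted p = 0.979). For the other 21 called genes the highest member held at most 6.38% of the UMIs.

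**Figure D4:**
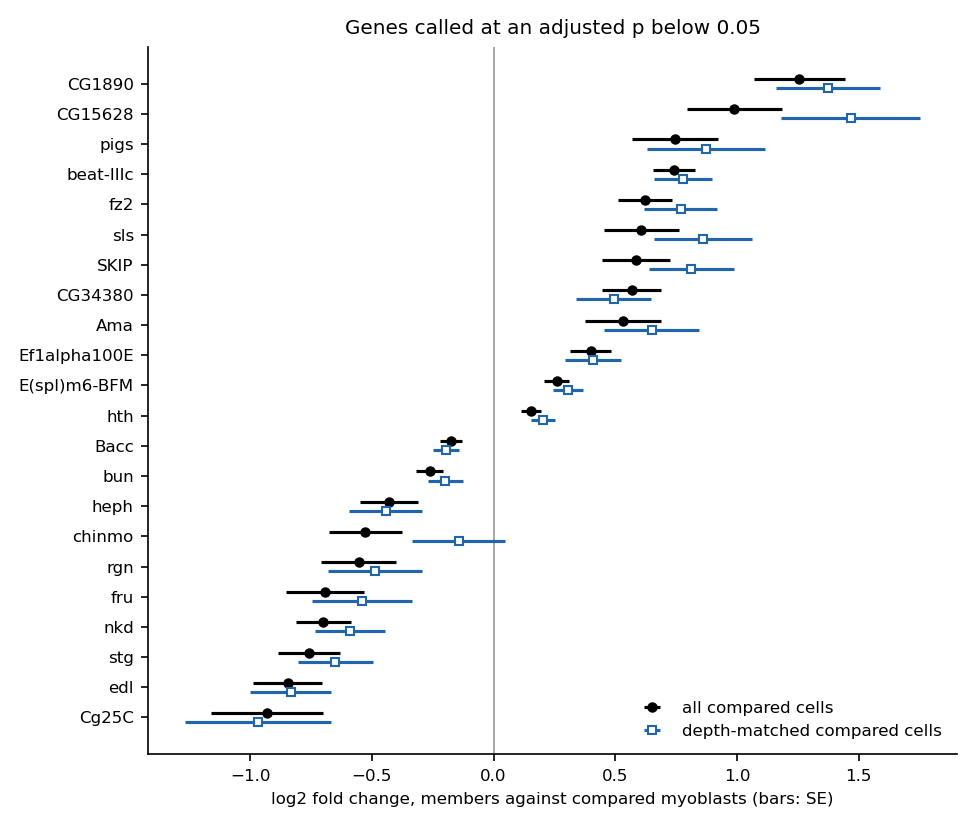
log2 fold changes (points) and their standard errors (bars) of the 22 called genes, members against all marker-negative myoblasts (filled circles) or against those of matched depth (open squares). The points lie on the same side of 0 in both, while chinmo moved from -0.53 to -0.14, and CG1890 was not called once 2 members rich in it were left out.

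Matching for depth left most of the calls of higher genes in place, and fewer of those of lower genes. With an equal number of compared cells of like UMI number, 18 of 1228 genes (1.47%) were called, and 14 of the 22 called genes remained called. CG1890, which rested on very few cells, was among these 14. Of the genes lower in members only nkd, edl, stg and Bacc remained called. beat-IIIc had a log2 fold change of 0.78 (SE 0.12), fz2 of 0.77 (SE 0.15), stg of -0.65 (SE 0.15), nkd of -0.59 (SE 0.14) and edl of -0.83 (SE 0.17), and fru was lost (-0.54, adjusted p = 0.231). The levels also moved with the number of marker UMIs in a cell. beat-IIIc averaged 581 CPM ± 132 (SD, n = 8) in cells with no marker UMI, 762 ± 261 with 1, 895 ± 304 with 2 and 1019 ± 427 with 3 or more. nkd averaged 645 CPM ± 251 with none, 438 ± 237 with 1, 370 ± 121 with 2 and 348 ± 112 with 3 or more, so that the cells with 1 marker UMI lay between the classes. For stg the cells with 1 marker UMI, at 476 CPM ± 306, were nearer to those with none (505 ± 128) than to those with 2 (266 ± 139). The spread between libraries was wide at each step.

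**Figure D5:**
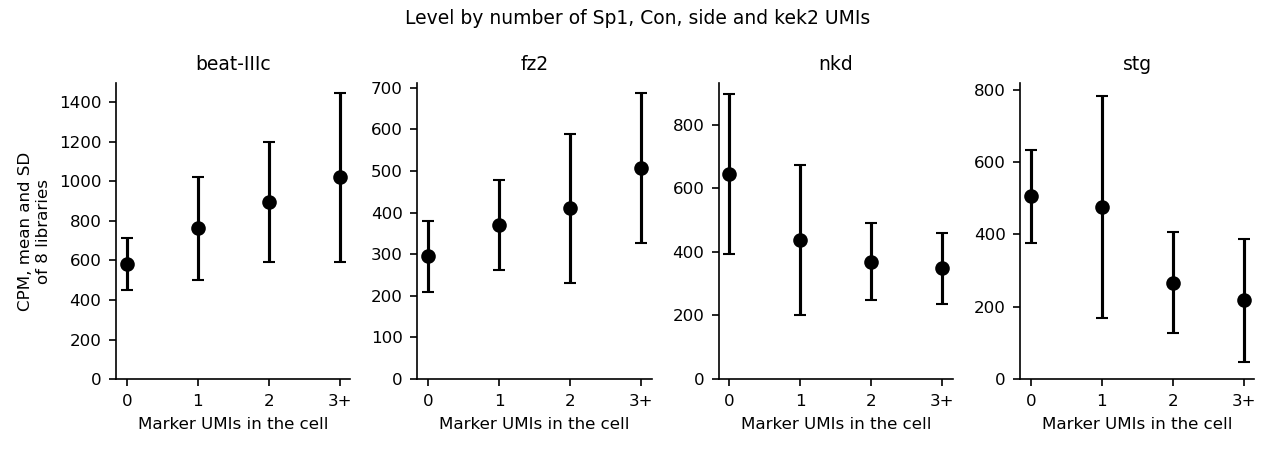
Levels (CPM, mean and SD of 8 wild-type libraries) of beat-IIIc, fz2, nkd and stg in myoblasts with 0, 1, 2 or at least 3 UMIs of the marker genes. The average of beat-IIIc went from 581 to 1019 and that of nkd from 645 to 348, with SDs that overlap between neighbouring steps.

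To compare cells with Notch targets active in both classes, the test was repeated on myoblasts with at least 2 UMIs of the targets E(spl)mbeta-HLH, E(spl)m7-HLH, E(spl)m6-BFM and E(spl)m3-HLH together. In 7 libraries, 1151>mCherry-RNAi replicate 7 being left out for its 6 members, 18 of 1085 genes (1.66%) were called. beat-IIIc had a log2 fold change of 0.73 (SE 0.10, adjusted p = 7.65e-08, edgeR) and fz2 one of 0.62 (SE 0.11, adjusted p = 1.30e-04). edl (-0.91), nkd (-0.61) and stg (-0.67) were lower again. CaMKII, a calcium-dependent kinase, and CG6770 were called here, with 0.75 and 0.19, and not among all members. The 2 comparisons share most of their cells. The count fell to 8 without 1151-GAL4 replicate 3 or replicate 4.

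Between the 2 wild-type lines the differences of members from other myoblasts could not be told apart. A test of the interaction called none of 1228 genes (0%) in edgeR's quasi-likelihood test, with 48 genes at an unadjusted p below 0.05, and none in DESeq2, with 25. Within 1151>mCherry-RNAi alone, which held 134 members, only beat-IIIc (log2 fold change 0.83), nkd (-1.12) and stg (-1.27) were called, and without 1151-GAL4 replicates 3 and 4, an alternative chosen after the data were seen, the same 3 genes (0.71, -0.86 and -1.24).

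Transcripts of other cell types were low in members. The summed level of 17 epithelial markers was 179 to 722 CPM in members and 166 to 586 CPM in the compared cells, and higher in members in 2 of 8 libraries. The 7 tracheal markers summed to 25.2 to 89.6 CPM against 24.3 to 107 CPM. Of 6 haemocyte markers Hml, NimC1 and eater had no UMI in members, He had 1, srp 2 and crq 10, and the sum was 0 to 45.5 CPM against 0 to 49.0 CPM. The 6 markers of neurons and glia summed to 43.7 to 538 CPM against 111 to 218 CPM, and were higher in 5 of 8 libraries. In UMIs, elav had 67 in members and 256 in the larger compared class, futsch 55 and 124, and nSyb 11 and 9. For brp these numbers were 9 and 32, for Syt1 4 and 19, and for the glial repo 1 and 1. The highest sum belonged to 1151>mCherry-RNAi replicate 5, where 1 member held 87 UMIs of the neuropeptide gene AstA, 49 of IA-2 and 6 of nSyb, a cell singled out after its values were seen. Among the genes used for the epithelial gate, at least 1 UMI was found in 7.69% to 32.6% of members and 2.80% to 19.1% of compared cells. Their part in the results was not tested, but with such cells left out of both classes 13 of the 22 genes remained called, beat-IIIc, fz2, nkd, edl and stg among them. No heat shock gene of the stress list was called among 6 tested, and roX1, a dosage compensation RNA of males, had a log2 fold change of -0.12 (adjusted p = 0.777, edgeR).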

How the data were processed

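Drop-seq libraries of wing disc notum and hinge were aligned by the authors with STAR to BDGP6 and summarised with the DigitalExpression program, and the barcodes were taken at the knee of the reads per barcode. The deposited values are raw UMI counts per gene and barcode, without normalization or filters. FastQC and STAR are also named in the submitters' processing notes. From the counts, cells were gated as described, without a doublet caller, and UMIs were summed per library and class. Libraries with at least 10 cells of both classes entered. The sums were tested with edgeR 4.0.16 (R 4.3.3): filterByExpr, TMM, the library as a block, glmQLFit and glmQLFTest, Benjamini-Hochberg adjustment over all tested genes, threshold 0.05. The 12 genes of the rule counted towards library sizes but were not tested. CPM were TMM-normalized, except those by number of marker UMIs, per cell class or in the summed marker lists, which were plain CPM. SE is the log2 fold change divided by the square root of F. Alternatives of the cells tested kept the genes of the original test. In the tests with 1 marker gene left out, that gene was kept whatever its count, a choice made after Sp1 and kek2 were found below the filter. Shares were compared over libraries by exact permutation (Python 3.11.15, numpy 2.4.6), and thinning to 400 UMIs used the hypergeometric expectation. Depth ran from 1335977 to 10548893 UMIs per library. The script was tested on simulated data.

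The members, gene lists and tests were chosen with earlier results of these data known. Named genes are those of the lists and the called genes. A rule for further genes, the 12 largest rises and 12 largest falls among called genes off the lists that moved one way in every library, gave none. DESeq2 1.42.0 was an alternative. Whether counting used strand is not given in the sources used here, and beat-IIIc, fz2, nkd, hth, Ama, Con, side and kek2 overlap other annotated genes. The study's filters on mitochondrial (10%), heat shock (6%) and 28S rRNA (1.5%) shares were an alternative.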

Additional observations from a re-analysis of the deposited data

Results flagged for a closer look

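Single libraries stood apart from the other 3 of their line for 5 of 50 sets of 4 values examined, of which chance alone would give about 1 in 20. The log2 difference of members from marker-negative myoblasts was -2.07 for stg in 1 1151-GAL4 library against -0.53 to -0.38 in the others. For chinmo it was -2.51 in 1 1151-GAL4 library against -0.60 to -0.40, and for heph it was 0.74 against -0.59 to -0.46. In 1151>mCherry-RNAi it was -1.02 for sls in 1 library against 0.75 to 1.12, and 0.0914 for rgn against -0.98 to -0.85. The libraries that stood apart held between 22 and 38 members each, and stg stayed called with each library left out.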

How the results depend on the processing

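Of 22 called genes, 9 kept their call with each library left out (beat-IIIc, fz2, Ef1alpha100E, CG34380, CG15628, nkd, edl, stg and bun), and beat-IIIc, nkd and stg kept it in 21 of 22 alternatives, all but the fit without the library block. The count of called genes was 7 with DESeq2, 110 without the filter on low counts, 0 without the library block, 3 in 1151>mCherry-RNAi alone and 3 without both deepest libraries, and 14 to 24 with each library left out, lowest without 1151-GAL4 replicate 4. The 7 genes of DESeq2 were beat-IIIc, fz2, Ef1alpha100E, CG34380, nkd, edl and stg. Without the filter, 12 of 13818 genes were higher and 98 lower, 49 of them ribosomal protein genes, and the median of the 1228 genes moved from -0.01 to -0.22, so that this setting shifts the scale, and hth was at -0.11. CG1890 was at -0.16 without the cells rich in it. Among the Notch-active cells the count was 8 to 20 with each library left out. The interaction had 0 calls throughout. With each library left out the log2 fold change was 1.88 to 2.30 for Sp1, 1.20 to 1.28 for Con, 0.38 to 0.59 for side and 0.66 to 1.19 for kek2. The line difference in the share was 1.97 to 4.71 percentage points, and 3.15 after thinning to 400 UMIs. For the libraries labelled 1151>Ama-RNAi it was -11.2 to -9.62. The numbers in the titles gave a replicate block over 1, 4 and 5, with a difference of -11.0 percentage points (exact sign-flip test, p = 0.25, the smallest it allows). Nothing in the labels says that a number marks shared material. The correlations of same-numbered libraries were 0.10, -0.16 and -0.36. With 1 pair for each number, and no unlike-numbered pairs set beside them, they cannot decide whether such libraries share more than a number. The causes of these changes were not tested. Of 330 values of 15 named genes that were not called, 28 changed sign without being called. Most members came from 2 libraries (432 of 610), and the other 6 held 18 to 46 each, which limits what could be called.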
